A study of Mus musculus with 8 samples.

Results

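The genes described here are 8 genes of the endoplasmic reticulum (ER) stress response and the integrated stress response: Hspa5, Hsp90b1, Herpud1, Xbp1, Atf4, Ddit3, Trib3 and Atf3. The list was set by gene name, with no rule on measured values, and all 8 were found among the 32285 genes of the count table. The table holds droplet-based single-cell RNA sequencing of CD45+ immune cells sorted from subcutaneous grafts of NIT-1, a beta cell line from an insulinoma of a non-obese diabetic (NOD) mouse. Grafts were either WT or Rnls mutant (Rnlsmut) and were taken 10 or 17 days after NOD.scid hosts had received splenocytes from diabetic donors, with 4 grafts for each genotype and day.

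All 4 groups share the host strain and the transfer of splenocytes. The mutation was in the grafted NIT-1 cells and not in the sorted immune cells, so that the Rnls level of the latter cannot check the labels. NOD.scid mice lack T and B cells of their own but keep innate cells, and sorted macrophages, monocytes, granulocytes and NK cells may therefore be of host or donor origin. The 4 grafts of a genotype and day shared 1 library and were told apart by hashtag antibodies, so that a difference between groups and one between libraries cannot be told apart. The table held 22441 cells, 350 to 1967 per graft, with 1742746 to 9729233 unique molecular identifiers (UMIs) per graft. The median cell of WT day 17 grafts had 4463 to 7823 UMIs, against 2882 to 3852 in the other 12 grafts, and 42 of 22399 distinct barcodes occurred in more than 1 library. Transcripts of 8 beta cell genes summed to at most 2.97 CPM (UMIs per 1000000 UMIs of the same cells) in any graft, and 5 of the 8 were at 0 in all 16. In this model WT and Rnlsmut grafts sit on opposite flanks of 1 host, and the paper describes its single-cell panels as 4 paired replicates. No source used here ties a hashtag to a host, so grafts were treated as unpaired. The p-values measure the spread between grafts, with differences between hosts left in it, and grafts of 1 host were taken as independent.

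When unfolded proteins accumulate in the ER, the sensors IRE1, PERK and ATF6 start the unfolded protein response. IRE1 splices the Xbp1 mRNA into that of an active transcription factor, ATF6 is cut to release another, and PERK phosphorylates the translation factor eIF2α. Other eIF2α kinases sense amino acid shortage, double-stranded RNA or heme lack, and all of them slow protein synthesis and favour translation of ATF4, which is the integrated stress response. In immune cells these pathways are known for their part in antibody secretion and in dendritic cell and macrophage function. The counts measure mRNA level, and Xbp1 splicing, ATF6 cleavage and eIF2α phosphorylation were not measured.

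Hspa5 encodes BiP, the main ER chaperone, Hsp90b1 encodes the ER chaperone GRP94 and Herpud1 a membrane protein of ER-associated degradation. The promoters of these 3 genes and of Atf3 are shown because they carry, near the start site, letters of elements known to bind ATF6 and XBP1 (ERSE, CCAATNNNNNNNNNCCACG, and ERSE-II, ATTGGNCCACG) or ATF4 and its partners (CARE, TGATGNAAN). The genes lie on chromosome 2 (Hspa5, bases 34771970 to 34777547, and Trib3, 152337422 to 152344032), 10 (Hsp90b1, 86690209 to 86705509, and Ddit3, 127290774 to 127296288), 8 (Herpud1, 94386438 to 94395377), 11 (Xbp1, 5520659 to 5525893), 15 (Atf4, 80255184 to 80257541) and 1 (Atf3, 191170296 to 191218039) of GRCm38. Bases are from RefSeq (GRCm38.p6), 5′ to 3′ on the strand of the gene, and run up to the base before the RefSeq start site. Capitals mark the fixed letters of a match on either strand.
Hspa5, chr2:34771915-34772089, plus strand: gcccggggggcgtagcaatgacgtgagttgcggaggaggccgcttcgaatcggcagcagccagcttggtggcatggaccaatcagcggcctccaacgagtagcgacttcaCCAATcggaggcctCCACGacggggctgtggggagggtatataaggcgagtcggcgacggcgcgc
Hsp90b1, chr10:86705445-86705669, minus strand: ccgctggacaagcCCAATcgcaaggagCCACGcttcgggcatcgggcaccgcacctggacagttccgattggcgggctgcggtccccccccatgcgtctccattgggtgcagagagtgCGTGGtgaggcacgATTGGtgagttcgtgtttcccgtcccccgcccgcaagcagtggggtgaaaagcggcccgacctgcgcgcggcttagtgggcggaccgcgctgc
Herpud1, chr8:94386254-94386428, plus strand: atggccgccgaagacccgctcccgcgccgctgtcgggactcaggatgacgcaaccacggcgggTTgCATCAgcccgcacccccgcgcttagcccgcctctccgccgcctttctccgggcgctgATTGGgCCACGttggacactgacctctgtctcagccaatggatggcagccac
Atf3, chr1:191183334-191183508, minus strand: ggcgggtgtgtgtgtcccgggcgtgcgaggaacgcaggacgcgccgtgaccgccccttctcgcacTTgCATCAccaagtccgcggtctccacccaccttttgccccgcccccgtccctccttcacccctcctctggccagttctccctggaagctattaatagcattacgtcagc

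The ERSE match of Hspa5 began 65 bases before the start site, and Hsp90b1 held 2 matches, 1 on each strand. Herpud1 held an ERSE-II match beginning 52 bases before the start and a CARE match on the reverse strand, and Atf3 held a reverse CARE match. Trib3 held a CARE match past its start site, and the promoters of Xbp1, Atf4 and Ddit3 held none of these letters. In windows of the same 300 bases, 0.119% of 32851 promoters held ERSE, 0.0365% ERSE-II and 3.95% CARE on either strand. ERSE was held by 8 of the 16 chaperone promoters with a RefSeq entry, and CARE by 11 of 33 promoters of the ATF4 and CHOP target list. A match is a description of letters, and binding was not measured.

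Across the 2 days, chaperone transcripts were lower at day 17 and the genotype of the graft moved none of the 8 genes past the threshold. In all CD45+ cells, UMIs summed per graft and tested with edgeR over 12560 genes, Hspa5, Hsp90b1, Xbp1 and Trib3 fell from day 10 to day 17 over both genotypes and Atf3 rose, 5 of 8 genes. The share called among all genes in that comparison was 57.6%, so that a count of 5 of 8 is near the background. In bulk sums of mixed cells, a change in the share of a cell type and a change in RNA per cell cannot be told apart. The mix of cells differed between days. The summed level of 4 macrophage markers at day 17 was 2457 to 2803 CPM in WT and 2465 to 5037 in Rnlsmut grafts, against 628 to 1296 and 277 to 1659 at day 10.

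Hspa5 stood at 1220.5, 1287, 1522 and 1337 CPM in the WT grafts and 1252, 1499, 1293 and 1451 in the Rnlsmut grafts at day 10, and 719.6, 913, 595 and 813 in WT and 498, 697, 729 and 1019.7 in Rnlsmut grafts at day 17. All 8 grafts of day 17 lay below all 8 of day 10. The log2 fold change of day 17 over day 10 was -0.92 (SE 0.12, edgeR adjusted p = 1.25e-05), with -0.93 in WT and -0.92 in Rnlsmut grafts. Hsp90b1 stood at 810.2, 874, 951 and 896 CPM in the WT grafts and 822, 839, 844 and 845 in the Rnlsmut grafts at day 10, and 509, 785, 574 and 629 in WT and 495, 538, 636 and 638 in Rnlsmut grafts at day 17. Its day 17 grafts lay below those of day 10 in each genotype, and its log2 fold change was -0.58 (SE 0.08, edgeR adjusted p = 2.99e-05). Hspa5 and Hsp90b1 were the 2 of 8 genes whose day 17 grafts lay below day 10 without overlap in both genotypes, a pattern that 8.53% of all genes tested showed. The share of all genes without overlap in a single genotype was not counted, so such splits, given below for single genes, have no background beside them.

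Xbp1, the transcription factor that IRE1 activates by splicing, stood at 173, 192, 228 and 219 CPM in the WT grafts and 157, 204, 187 and 205 in the Rnlsmut grafts at day 10, and 111, 148, 117 and 107 in WT and 118, 147, 177 and 161 in Rnlsmut grafts at day 17. Its ranges did not overlap in WT and overlapped in Rnlsmut grafts. The log2 fold change over both genotypes was -0.60 (SE 0.10, edgeR adjusted p = 8.31e-05), with -0.86 in WT, where 3 of the 8 genes and 37.9% of all genes were called, and -0.34 in Rnlsmut grafts (adjusted p = 0.0539), where 3 of 8 and 46.7% of all genes were called. The difference between these day contrasts did not pass the threshold (log2 0.52, adjusted p = 0.422).

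Herpud1 ranged over 99.4 to 148 CPM in WT and 107 to 117 in Rnlsmut grafts at day 10, and over 88.3 to 167 and 82.2 to 185 at day 17. The days overlapped in both genotypes, and the log2 fold change was 0.03 (SE 0.16, edgeR adjusted p = 0.887). The value takes the opposite sign under 3 other settings and with 1 of 4 grafts left out, and no direction is given for it.

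Atf4, the transcription factor of the integrated stress response, ranged over 152 to 190.5 CPM in WT and 145 to 193 in Rnlsmut grafts at day 10, and over 167 to 213 and 172 to 217 at day 17. Its log2 fold change was 0.11 (SE 0.08, edgeR adjusted p = 0.262). Ddit3 encodes CHOP, a factor downstream of ATF4 linked to cell death, and 2 overlapping records of that name in the annotation make its counts uncertain. It ranged from 34.3 to 80.3 over the 16 grafts, with a log2 fold change of -0.10 (SE 0.19, edgeR adjusted p = 0.674). Both genes overlapped between days in both genotypes.

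Trib3, a pseudokinase induced by ATF4 and CHOP, was scarce, with 5 to 52 UMIs per graft. It stood at 4.21, 5.08, 3.76 and 5.77 CPM in the WT grafts and 5.44, 6.06, 7.23 and 5.85 in the Rnlsmut grafts at day 10, and 4.19, 2.37, 4.42 and 3.35 in WT and 3.14, 3.53, 2.7 and 2.87 in Rnlsmut grafts at day 17. The Rnlsmut grafts did not overlap between days and the WT grafts did. Its log2 fold change was -0.70 (edgeR adjusted p = 0.000889), and its counts were too low for a test within any single cell type. The ratio of mean levels, day 17 over day 10, was 0.89 in WT and 1.04 in Rnlsmut CD4 T cells. In CD8 T cells it was 1.36 and 0.998, and in macrophages 0.66 and 0.34. The part of the cell mix in the fall was not tested. Trib3 was tested in the comparison of macrophages with CD4 T cells described below and did not pass. There its log2 difference ranged from -1.36 to -0.54 over 14 fits that left out 1 graft.

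Atf3, a stress-induced transcription factor and a target of ATF4, stood at 696, 399, 559 and 424 CPM in the WT grafts and 626, 851, 343 and 252 in the Rnlsmut grafts at day 10, and 739, 747, 722 and 1073 in WT and 559, 805, 754 and 1346 in Rnlsmut grafts at day 17. The fourth Rnlsmut graft of day 17 was the highest of all 16 and the fourth Rnlsmut graft of day 10 the lowest. The log2 fold change was 0.65 (SE 0.24, edgeR adjusted p = 0.0281). It did not pass when the hashtag number was taken as a block (adjusted p = 0.0548), nor without WT graft 2 or 4 of day 10 (0.0605 and 0.0564), Rnlsmut graft 3 of day 10 (0.0583), WT graft 4 of day 17 (0.064) or Rnlsmut graft 4 of day 17 (0.0732), by the same test. Within macrophages the mean Atf3 level of day 17 was 0.90 times that of day 10 in WT and 0.80 times in Rnlsmut grafts. In CD4 T cells these ratios were 2.39 and 1.58. The part of the cell mix in the rise was not tested.

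**Figure D1:**
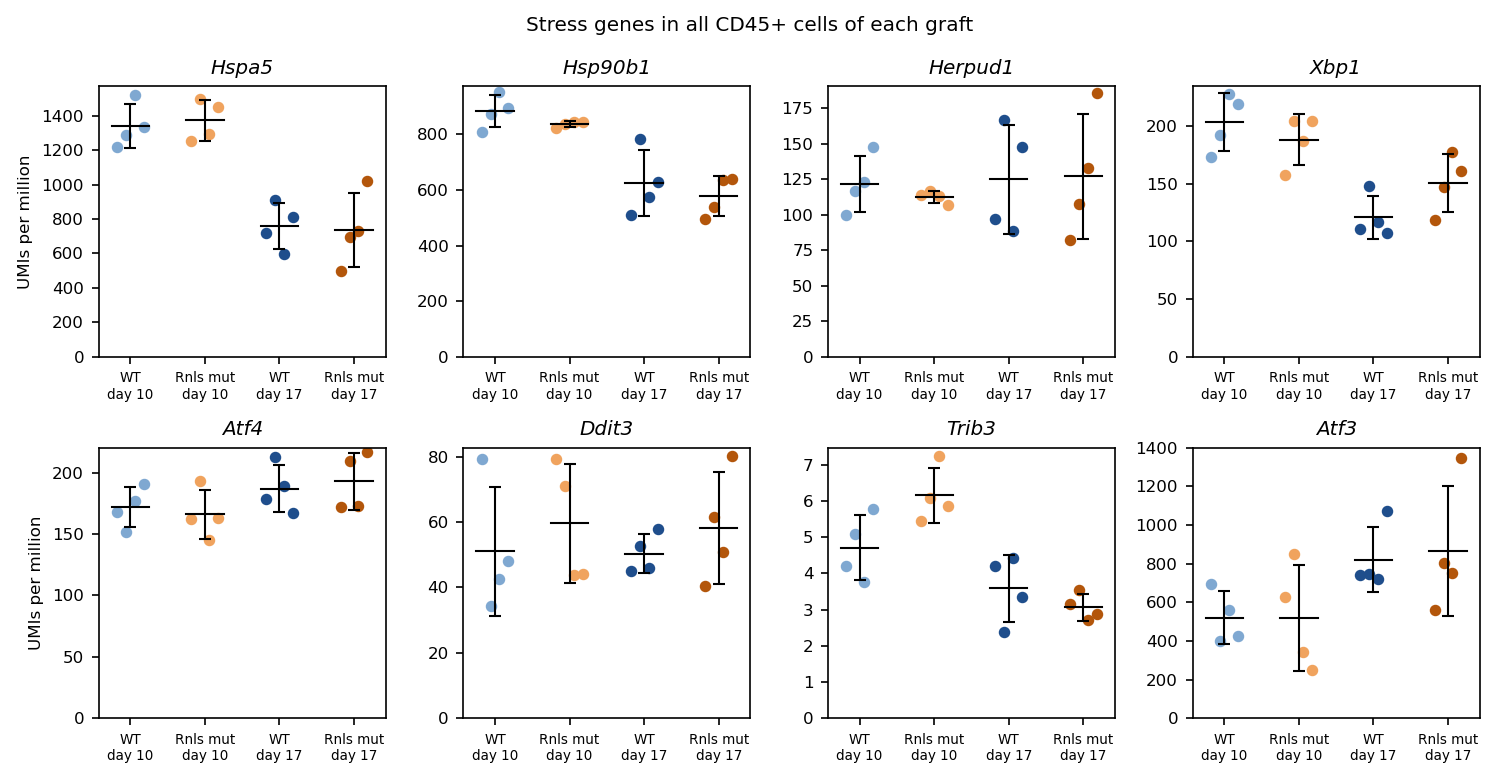
CPM of each gene in all CD45+ cells (y axis, linear from 0) for the 4 groups (x axis). Each point is 1 graft, the line the mean and the bar the SD of 4 grafts. The Hspa5 points of day 17 lie at 498 to 1019.7, all below those of day 10.

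For the genotype, which the study compared, the 8 genes did not differ past the threshold in all CD45+ cells at day 10, at day 17, over both days or in the change between them. The shares of all genes called were 0.0796%, 0.0159%, 0% and 0.143%, so that few genes of any kind were called. At an unadjusted p under 0.05, 783 of 12560 genes passed over both days in edgeR, none of them among the 8, and DESeq2 called none of the 8 either. Xbp1 passed the unadjusted threshold at day 17, where its log2 fold change of Rnlsmut over WT was 0.38 (SE 0.14, edgeR adjusted p = 0.526). Over both days the 95% interval of the log2 difference ran from -0.23 to 0.25 for Hspa5, from -0.25 to 0.08 for Hsp90b1, from -0.07 to 0.31 for Xbp1 and from -0.15 to 0.17 for Atf4. It was wider for Atf3 (-0.42 to 0.51) and Ddit3 (-0.14 to 0.59).

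Within the 9 cell types with enough cells, 56 tests of the 8 genes could be made for each contrast. None passed for the genotype at day 10, at day 17, over both days or for the difference between days, where 0.123%, 0.151%, 0.00219% and 0.326% of all tests of genes in types were called. An unadjusted p under 0.05 was reached in 1, 6, 3 and 4 of the 56 tests in edgeR, and DESeq2 called none at day 10, day 17 or over both days. Over both days these 3 were Hspa5 in dendritic cells (DC, log2 -0.35, SE 0.13, edgeR adjusted p = 0.863), Atf3 in ILC-1 (log2 2.11, SE 0.90, edgeR adjusted p = 0.982) and Atf4 in regulatory T cells (log2 -0.55, SE 0.26, edgeR adjusted p = 0.786). The smallest adjusted p of the 4 contrasts was 0.09, for Atf3 in granulocytes by edgeR, whose log2 difference between days was -1.96 (SE 0.57).

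With the cell types held apart, the fall of the chaperones with day was found in most types. Hspa5 fell in 7 of 9 types, Xbp1 in 7 of 9 and Hsp90b1 in 6 of 8 in which it could be tested. In all, 27 of 56 tests passed, 25 of them lower at day 17. The share of all genes called in either direction was 50.9% in macrophages, 14.4% in monocytes, 27.1% in DC, 8.74% in granulocytes, 12.9% in NK cells, 15.5% in ILC-1, 36.6% in CD4 T cells, 21.4% in CD8 T cells and 15.7% in regulatory T cells. Of the genes tested in each, 4 of 7 passed in macrophages, 4 of 7 in monocytes, 3 of 7 in DC, 2 of 4 in granulocytes, 2 of 6 in NK cells, none of 6 in ILC-1, 6 of 7 in CD4 T cells, 3 of 7 in CD8 T cells and 3 of 5 in regulatory T cells.

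The Hspa5 log2 fold change was most negative in monocytes. There Hspa5 stood at 1532, 1899, 2325 and 1932 CPM in the WT grafts and 1939.5, 2441, 1833 and 2296 in the Rnlsmut grafts at day 10, and 717, 620.1 and 894 in WT and 443, 437, 819.7 and 706 in Rnlsmut grafts at day 17, with 3 WT grafts of at least 10 monocytes at day 17. No day 17 graft reached the lowest of day 10, and the log2 fold change was -1.80 (SE 0.15, edgeR adjusted p = 5.05e-08). In macrophages Hspa5 stood at 1539, 1315, 1747 and 1194 CPM in the WT grafts and 1443, 1609, 1422 and 1660.4 in the Rnlsmut grafts at day 10, and 721, 1192, 602 and 866 in WT and 478, 723, 796 and 1212 in Rnlsmut grafts at day 17, without overlap within a genotype, although the nearest WT grafts, at 1194 and 1192, almost met. The log2 fold change was -1.001 (SE 0.17, edgeR adjusted p = 0.000115) in macrophages, in DC -0.96 (SE 0.14, edgeR adjusted p = 4.43e-05), in CD8 T cells -0.97 (SE 0.10, edgeR adjusted p = 1.85e-08) and in CD4 T cells -0.87 (SE 0.08, edgeR adjusted p = 1.63e-08). In NK cells it was -0.45 (SE 0.12, edgeR adjusted p = 0.0149). Granulocytes (log2 -0.36, SE 0.31) and ILC-1 (log2 -0.57, SE 0.29) did not pass. Whether monocytes differed from NK cells was not tested.

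Hsp90b1 followed in monocytes at -1.12 (SE 0.18, edgeR adjusted p = 0.000487), in CD4 T cells at -0.92 (SE 0.11, edgeR adjusted p = 1.17e-06) and in CD8 T cells at -0.88 (SE 0.11, edgeR adjusted p = 8.7e-07). It was -0.62 (SE 0.10, edgeR adjusted p = 8.46e-05) in macrophages and -0.43 (SE 0.13, edgeR adjusted p = 0.0176) in DC. In regulatory T cells the value of -0.57 (SE 0.18, edgeR adjusted p = 0.0341) did not pass in 7 of the 14 fits that left out 1 graft (log2 -0.75 to -0.45 over the 14). Herpud1 fell in monocytes, where it ranged over 86.7 to 152 in WT and 136 to 158 in Rnlsmut grafts at day 10 and over 36.2 to 71.5 and 47.4 to 122 at day 17. The log2 fold change was -1.21 (SE 0.22, edgeR adjusted p = 0.00106). It also fell in CD4 T cells (log2 -0.33, SE 0.10, edgeR adjusted p = 0.0159), but not without WT graft 1 of day 17 (adjusted p = 0.0716 by the same test).

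The share of all genes with every day 17 graft below every day 10 graft in both genotypes was 4.92% in macrophages, 1.56% in monocytes, 3.42% in DC, 1.44% in NK cells, 2.66% in CD4 T cells, 1.52% in CD8 T cells, 1.46% in regulatory T cells, 3.34% in granulocytes and 9.55% in ILC-1. Hspa5 was such a gene in macrophages, monocytes, DC, CD4 T cells, CD8 T cells and regulatory T cells, and Hsp90b1 in monocytes, CD4 T cells and CD8 T cells. Herpud1 was such a gene in monocytes and Ddit3 in granulocytes, and none of the 8 was in NK cells or ILC-1. In ILC-1, with 2 grafts a group, Atf4 lay above day 10 at day 17 in both genotypes, as 17.7% of genes did.

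Xbp1 fell in macrophages, monocytes, DC, NK cells and the 3 types of T cells. Its log2 fold change was -1.25 (SE 0.19, edgeR adjusted p = 2.48e-05) in CD8 T cells, -1.20 (SE 0.16, edgeR adjusted p = 6.02e-06) in CD4 T cells and -1.10 (SE 0.27, edgeR adjusted p = 0.00747) in regulatory T cells. It was -0.64 (SE 0.09, edgeR adjusted p = 1.44e-05) in macrophages, -0.90 (SE 0.14, edgeR adjusted p = 0.000101) in DC and -0.83 (SE 0.19, edgeR adjusted p = 0.00479) in NK cells. In monocytes the value of -0.55 (SE 0.16, edgeR adjusted p = 0.0248) did not pass in 4 of 15 fits that left out 1 graft (log2 -0.68 to -0.49 over the 15), nor with library totals as the only scaling (log2 -0.37).

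The calls of Atf4, Ddit3 and Atf3 went in both directions. Atf4 rose in CD4 T cells (log2 0.34, SE 0.10, edgeR adjusted p = 0.00995), 1 of the 8 types tested, though not without the filter on low counts (log2 0.25, adjusted p = 0.0876 by the same test). Ddit3 fell in macrophages (log2 -0.79, SE 0.19, edgeR adjusted p = 0.00247) and in granulocytes (log2 -1.79, SE 0.36, edgeR adjusted p = 0.0075). In monocytes it was -0.83 (SE 0.29, edgeR adjusted p = 0.059). Atf3 rose in CD4 T cells (log2 0.75, SE 0.21, edgeR adjusted p = 0.00684) and fell in granulocytes (log2 -1.16, SE 0.29, edgeR adjusted p = 0.015). The granulocyte values rest on few molecules, with 1 to 33 Ddit3 UMIs per graft in 12 grafts, of which 2 were WT at day 17. Without WT graft 1 of day 17 neither passed, with log2 -1.58 for Ddit3 (adjusted p = 0.0631) and -0.90 for Atf3 (0.0991) by the same test.

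**Figure D2:**
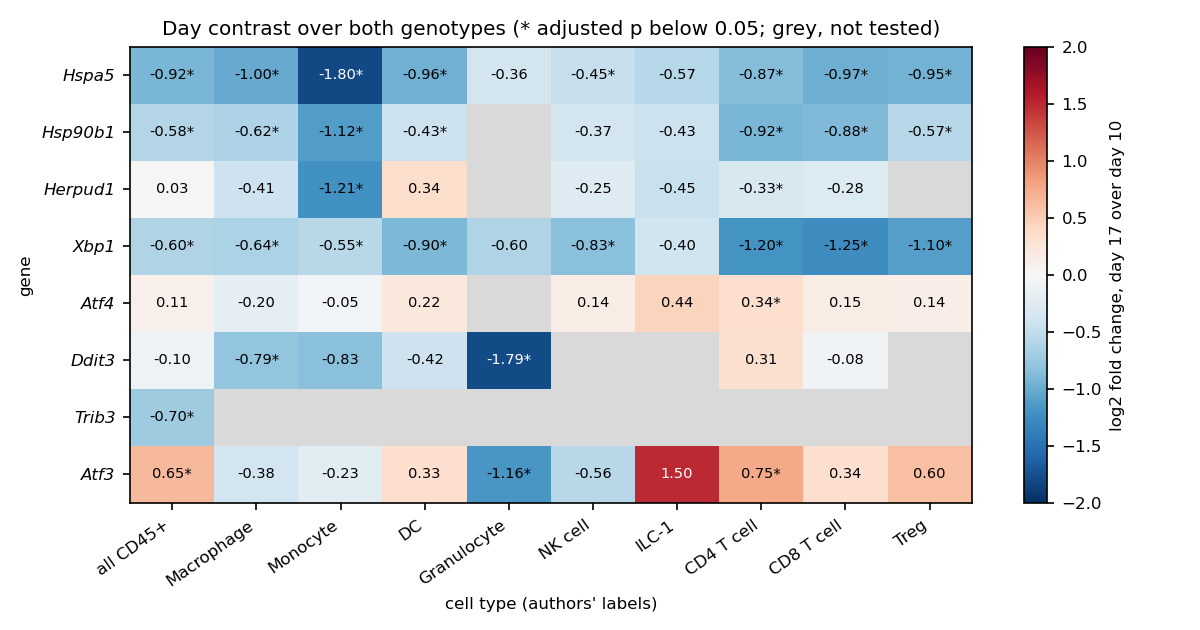
Log2 fold change of day 17 over day 10 over both genotypes (colour, blue lower and red higher at day 17) for the 8 genes (rows) in all CD45+ cells and 9 cell types (columns). Stars mark an edgeR adjusted p under 0.05 and grey boxes genes too low in counts to be tested. Hspa5, Hsp90b1 and Xbp1 are negative in every type tested, and of these columns Trib3 was tested in all CD45+ cells only.

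Macrophages and CD4 T cells, the most abundant myeloid and lymphoid types, were compared in the same 16 grafts, with the graft as a block. The difference between their day contrasts passed for 4 of the 8 genes, Atf3, Ddit3, Xbp1 and Atf4, against 15.6% of 9421 genes. Ddit3 stood in macrophages at 134, 56.2, 70.6 and 68.3 CPM in the WT grafts and 139.7, 119, 91.9 and 88.8 in the Rnlsmut grafts at day 10, and 64.5, 46.2, 50.1 and 68 in WT and 46.9, 68, 56.9 and 102 in Rnlsmut grafts at day 17. In CD4 T cells it stood at 30.5, 18.9, 26.9 and 18.4 CPM in the WT grafts and 24.8, 36.7, 28.2 and 30 in the Rnlsmut grafts at day 10, and 30.7, 53.6, 46 and 33.7 in WT and 28.5, 49.7, 34 and 23.2 in Rnlsmut grafts at day 17. The WT CD4 T cells of day 17 lay above those of day 10, although the nearest grafts, at 30.7 and 30.5, almost met. The days overlapped in Rnlsmut CD4 T cells and in macrophages of both genotypes. How many of all genes split in this way in a single genotype was not counted. In CD4 T cells alone the log2 fold change of Ddit3 was 0.31 (SE 0.16) and did not pass (edgeR adjusted p = 0.145).

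The log2 difference, macrophages minus CD4 T cells, was -1.03 (SE 0.22, edgeR adjusted p = 0.00151) for Ddit3. For Atf3 it was -1.14 (SE 0.27, edgeR adjusted p = 0.00435). Atf3 in CD4 T cells stood at 39.7, 34.9, 45.3 and 34.2 CPM in the WT grafts and 64.8, 56.2, 63 and 31.5 in the Rnlsmut grafts at day 10, and 39.1, 82.5, 136 and 111 in WT and 65.3, 106, 86.1 and 83.7 in Rnlsmut grafts at day 17. In macrophages it ranged over 1094 to 1936 in WT and 891 to 2338 in Rnlsmut grafts at day 10, and over 766 to 1569 and 754 to 1882 at day 17. The Rnlsmut CD4 T cells of day 17 lay above those of day 10, and the macrophage ranges overlapped.

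For Atf4 the difference was -0.49 (SE 0.13, edgeR adjusted p = 0.0107). Atf4 in CD4 T cells stood at 139, 106, 124 and 135 CPM in the WT grafts and 124, 127, 128 and 125 in the Rnlsmut grafts at day 10, and 137, 206, 232 and 165 in WT and 157, 187, 166 and 153 in Rnlsmut grafts at day 17, and the Rnlsmut grafts did not overlap between days. The difference for Atf4 did not pass without the filter on low counts (log2 -0.41, adjusted p = 0.0705 by the same test). For Xbp1 the difference had the other sign, 0.57 (SE 0.15, edgeR adjusted p = 0.00965), as Xbp1 fell further in CD4 T cells. Those stood at 138, 188, 212 and 183 CPM in the WT grafts and 118, 156, 178 and 195 in the Rnlsmut grafts at day 10, and 52.9, 78.4, 86.1 and 97.8 in WT and 55.2, 109.8, 104 and 130.2 in Rnlsmut grafts at day 17, without overlap in WT grafts. For Hspa5 the difference was -0.15 (SE 0.15, edgeR adjusted p = 0.547), with a 95% interval of -0.43 to 0.14.

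A list of 12 genes known to be induced by warm tissue digestion was summed in the same grafts. In macrophages its summed level was 6909 to 8998 CPM in WT and 6981 to 15336 in Rnlsmut grafts at day 10, and 4228 to 7096 and 4969 to 8263 at day 17. In CD4 T cells it was 1602 to 2440.2 and 2298 to 3966 at day 10, and 3131 to 3645 and 2330.4 to 3203 at day 17. The ranges of day 17 lay above those of day 10 in WT CD4 T cells and overlapped them in Rnlsmut CD4 T cells. All 12 genes of the list were detected, and its part in the results for Atf3, Ddit3 and Atf4 was not tested.

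**Figure D3:**
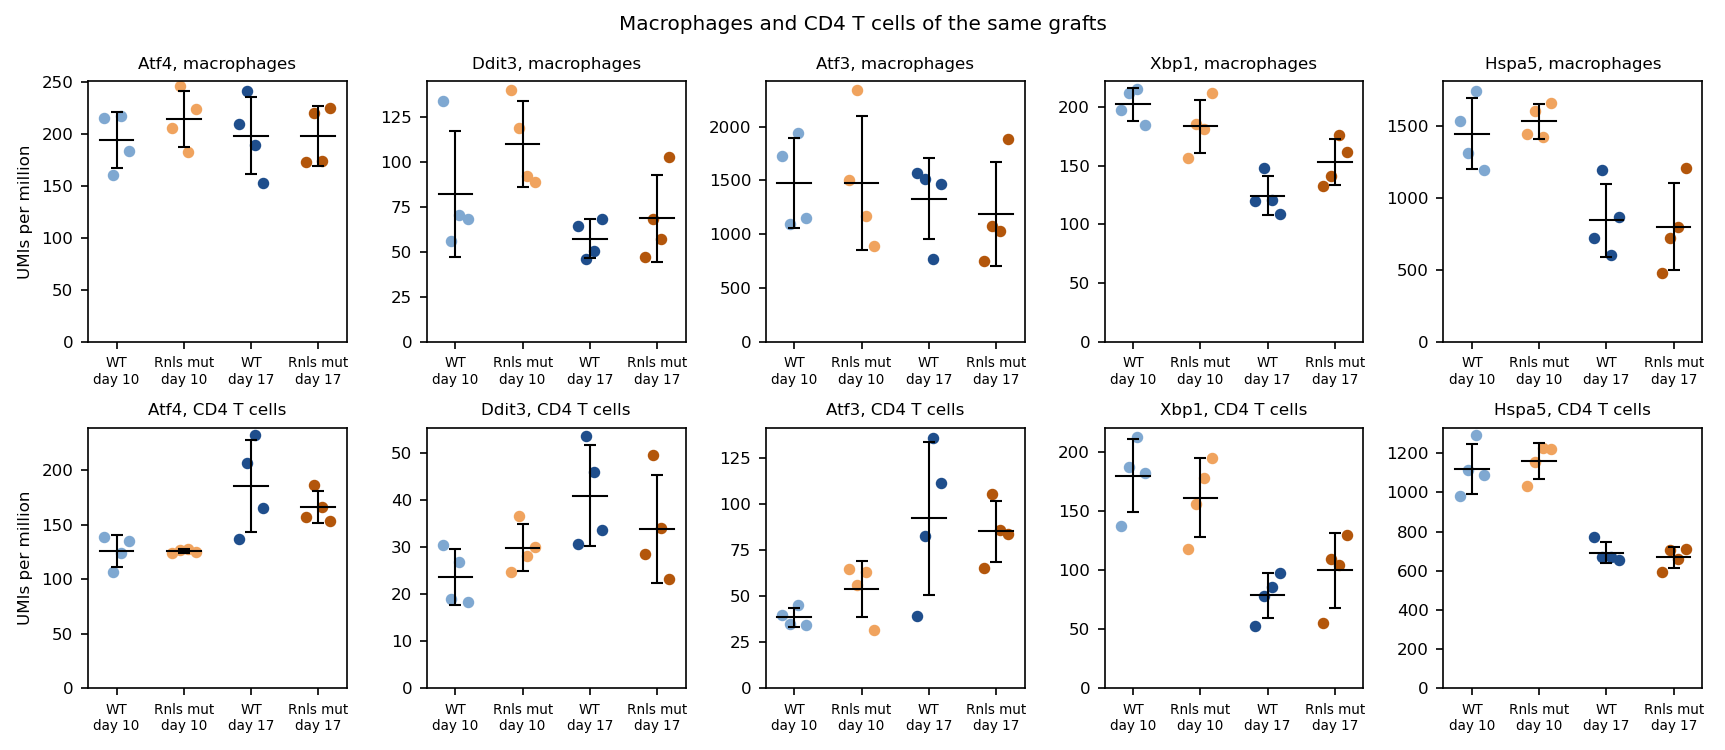
CPM (y axes, linear from 0) of 5 genes in macrophages (upper row) and CD4 T cells (lower row) of the same 16 grafts, by group (x axis). Points are grafts, lines means and bars SD of 4 grafts. Hspa5 and Xbp1 are lower at day 17 in both rows, whereas the group means of Atf4, Ddit3 and Atf3 in CD4 T cells are higher at day 17.

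The other genes of the pathway were taken from 4 lists of 86 genes in all. Of 20 ER chaperones and folding enzymes, Hspa5 and Hsp90b1 among them, 15 of 18 tested fell in macrophages and none rose, 12 of 18 fell in monocytes, 13 of 18 in CD4 T cells and 9 of 18 in DC, with none higher. Of all genes, 25.3%, 8.11%, 17.7% and 13.6% fell in these types. The median log2 fold change of the list was -0.60, -0.96, -0.48 and -0.39, against 0.02, -0.06, 0.01 and -0.0036 for all genes. In NK cells 1 of 15 fell, near the 6.56% of all genes that fell there. Pdia6, a disulfide isomerase, had a log2 fold change of -1.02 in macrophages and -0.98 in CD4 T cells. Creld2, another folding factor, had -1.10 in macrophages and -1.37 in monocytes, and Manf, a secreted ER stress protein, -1.30 in monocytes.

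Of 21 genes of ER-associated degradation and translocation, Herpud1 among them, 11 of 20 tested fell and 2 rose in macrophages, 7 of 20 fell in monocytes and 10 of 20 in CD4 T cells. Of all genes, 25.3%, 8.11% and 17.7% fell in these types. Ssr2, a subunit of the translocon-associated complex, had a log2 fold change of -0.996 in CD4 T cells. Of 7 sensors, 1 rose in CD4 T cells, Ern1, which encodes IRE1 (log2 1.04), and 2 rose in macrophages, shares near the 18.8% and 25.6% of all genes that rose in these types. Ern1 also rose in ILC-1 (log2 1.70), regulatory T cells (0.77) and NK cells (0.37) and was not called in CD8 T cells. Its day contrast in macrophages minus CD4 T cells was -1.16 (edgeR adjusted p = 2.0e-05).

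The list of ATF4 and CHOP targets, with Atf4, Ddit3, Trib3 and Atf3 among its 38 genes, had members in both directions. In macrophages 15 of 24 tested fell and 1 rose (median log2 -0.52), whereas in CD4 T cells 7 of 21 fell and 4 rose (median -0.17), Atf3 and Atf4 among them. Of all genes, 25.3% fell and 25.6% rose in macrophages, and 17.7% fell and 18.8% rose in CD4 T cells, so that the count that rose in CD4 T cells is near the background. Ppp1r15a encodes GADD34, which restores protein synthesis. It rose at day 17 in ILC-1 (log2 2.84), CD8 T cells (1.41), granulocytes (1.32) and regulatory T cells (1.14). Its log2 fold change was 1.49 in CD4 T cells and -2.31 as the difference of macrophages minus CD4 T cells, where 9 of 28 genes of the list were lower and 1 higher, against 7.5% and 8.07% of all genes. Ddit4, an inhibitor of mTORC1, had -2.001 and Mthfd2, an enzyme of mitochondrial folate metabolism, -1.11 in macrophages. Slc7a11 went in opposite directions, with -1.41 in macrophages and 1.94 in monocytes, and Nupr1 had -2.67 in DC. In all CD45+ cells the amino acid synthesis genes Asns (-1.79), Phgdh (-1.68) and Psat1 (-1.14) fell, as did Ddit4 (-1.54), and Gdf15 rose (1.07). Phgdh was also lower in CD4 T cells (-0.61), whereas Asns and Psat1 were not called in CD4 T cells, CD8 T cells or DC. Cells labelled stem or progenitor numbered 421 in WT and 330 in Rnlsmut grafts at day 10, and 19 and 60 at day 17. The part of this change in the cell mix was not tested. For the genotype over both days, none of the 7 sensors, 18 chaperones, 21 degradation genes and 31 targets tested was called in all CD45+ cells, where edgeR called 0 of all genes.

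**Figure D4:**
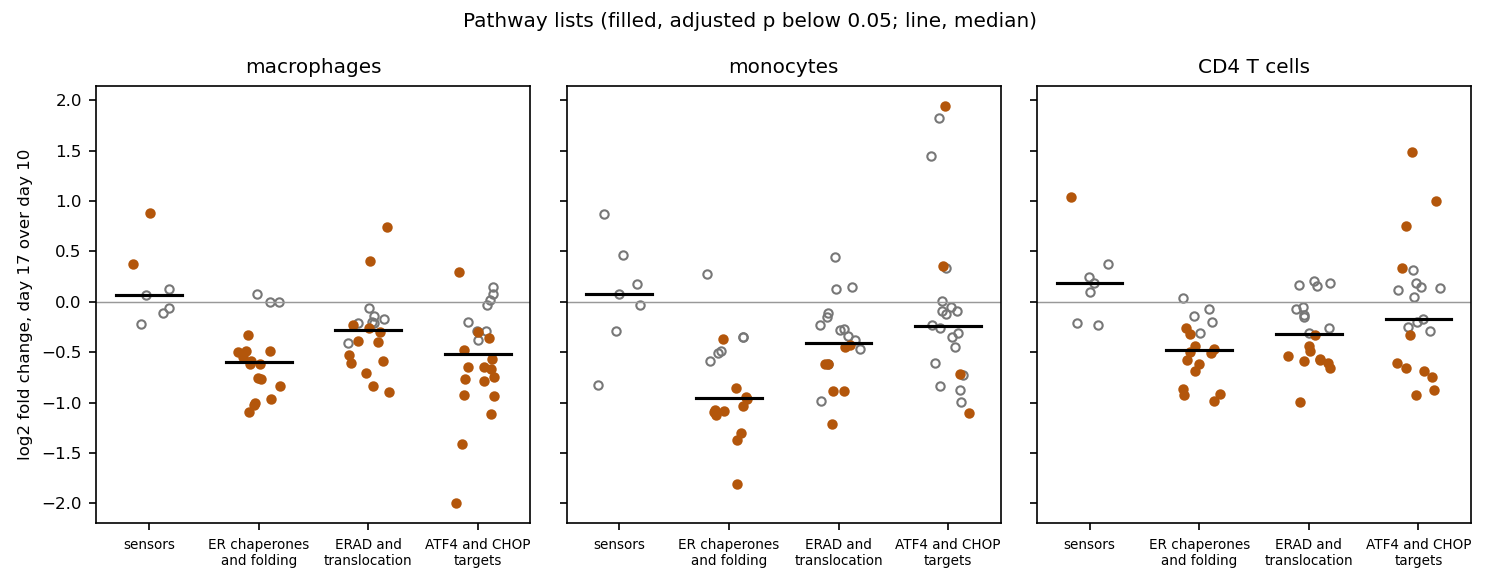
Log2 fold change of day 17 over day 10 (y axis) of each gene tested in the 4 pathway lists (x axis) for macrophages, monocytes and CD4 T cells. Filled points passed an edgeR adjusted p of 0.05, open points did not, and lines are medians. Chaperone medians are -0.60, -0.96 and -0.48.

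By cell type, levels were compared gene by gene as a mean of the 4 group means ± SD over grafts, without a test, since the authors' types came from the same counts. The order is that of the 9 fitted types, which leaves out stem or progenitor cells, B cells and mast cells. Hspa5 was highest in monocytes (1349 ± 745 CPM), followed by macrophages (1157 ± 408), and monocytes lay above macrophages in 10 of 15 grafts. That order was of day 10, with group means of 1922 in WT and 2127 in Rnlsmut monocytes against 1449 and 1533 in macrophages. At day 17 monocytes, at 744 and 601, were below macrophages, at 845 and 802, and ILC-1 had the highest mean in both genotypes. That ILC-1 mean rests on 2 grafts a group, at 628 and 1071 in WT and 751 and 872 in Rnlsmut grafts. Over the 4 groups Hspa5 was lowest in regulatory T cells (533 ± 194). Hsp90b1 was highest in monocytes (885 ± 339.7) and lowest in granulocytes (102 ± 151), and at day 17 macrophages had the highest group mean in both genotypes (729 and 634). The stem or progenitor cells left out of the order had 930.4 ± 299. Herpud1 was highest in DC (232 ± 72.1), above macrophages (147 ± 39.8) in 16 of 16 grafts. Xbp1 was highest in monocytes (257 ± 78.9), above granulocytes (222 ± 152) in 8 of 12 grafts, and granulocytes lay above DC (186 ± 66.9) in 7 of 12.

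Atf4 ranged from 108 ± 63.4 in granulocytes to 242 ± 83.3 in ILC-1, and at day 10 macrophages had its highest group mean in both genotypes. Ddit3 was highest in granulocytes (218 ± 149), above macrophages (79.4 ± 30.2) in 11 of 12 grafts. In Rnlsmut grafts of day 17 ILC-1 had the highest group mean of Ddit3, from 2 grafts at 43.2 and 178.8. Atf3 was higher in the myeloid types, with 1367 ± 452 in macrophages, 1311 ± 745 in granulocytes, 557 ± 195 in DC and 543 ± 147 in monocytes. In lymphoid types it was highest in NK cells (124 ± 65.4), below monocytes in 15 of 15 grafts, and lowest at 33.9 ± 15.4 in CD8 T cells. Trib3 had a mean of at most 9.49 in any of the 9 types.

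Within the authors' 29 clusters, pooled over all cells, levels were compared as a description. The B cell cluster (cluster 27, 35 cells of 12 grafts) was first for Hsp90b1 at 3717 and Xbp1 at 1308 CPM and second for Herpud1 at 535. Of its 35 cells, 22 held Jchain, a chain of secreted antibody, with 7001 UMIs in all, and 16 held the B cell marker Ms4a1. A single cell gave 17.8% of the Hsp90b1 UMIs. A DC cluster (cluster 25, 137 cells, which held Siglech, a marker of plasmacytoid DC) held Xbp1 at 616, Herpud1 at 604, Hsp90b1 at 1648 and Hspa5 at 1614. Another DC cluster (cluster 21, 240 cells) was last of 29 for Hspa5 at 452 and second to last for Xbp1 at 62.

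Monocyte cluster 1 (1799 cells) was first for Hspa5 at 2023. Macrophage cluster 13 (551 cells) was first for Atf3 at 3054 and second for Ddit3 at 124 and for Hspa5 at 1790.2. The 13 mast cells were first for Atf4 at 565, from 22 UMIs. The labels were checked against markers. Macrophages held Adgre1 and C1qa, monocytes Ly6c2, granulocytes S100a8, NK cells and ILC-1 Ncr1 and regulatory T cells Foxp3. The type labelled stem or progenitor cells held T cell markers Cd3e, Cd3d and Trac at a summed level of 1562 CPM, as the mean over grafts, and the cycling genes Mki67 and Top2a at 1443, and only 1 WT graft of day 17 held 10 such cells, so it was not fitted.

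**Figure D5:**
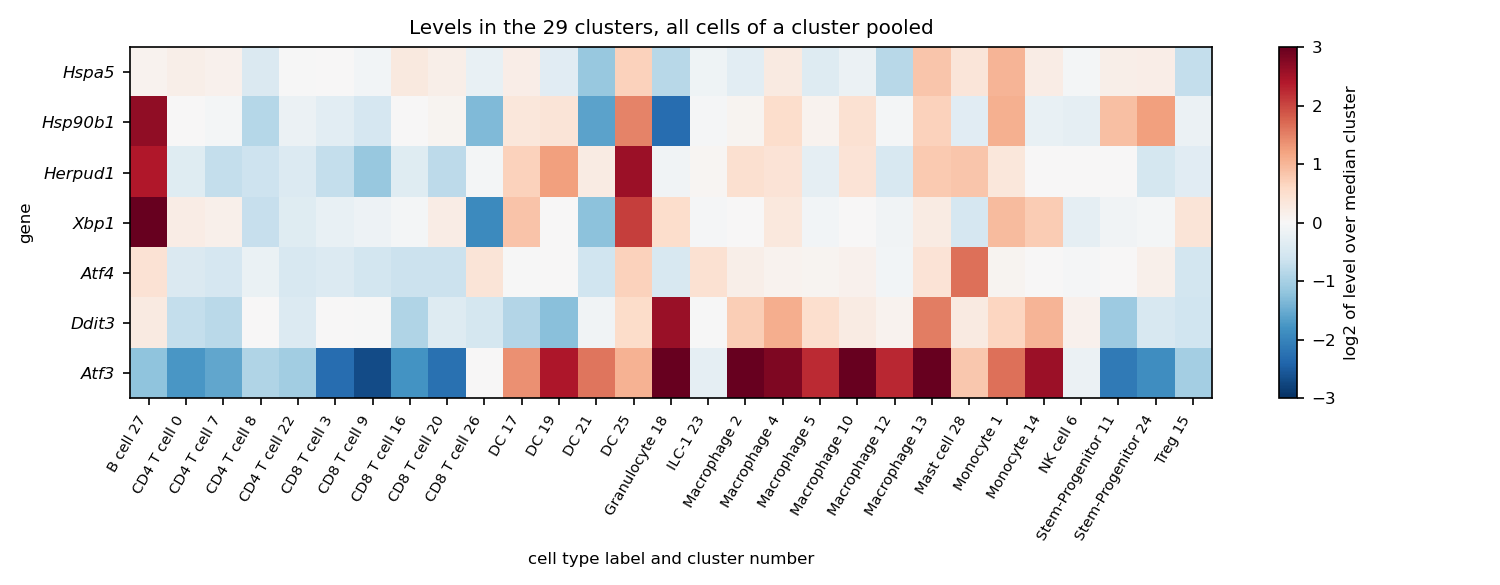
Level of 7 genes (rows, Trib3 left out for low counts) in each of the 29 clusters (columns, named by type and number), as log2 of the CPM over the median cluster. The scale stops at 3 in either direction. B cell cluster 27 and DC cluster 25 are high for Hsp90b1, Herpud1 and Xbp1, and Atf3 is high in macrophages and granulocytes.

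Likeness was described by Pearson's r of log2(CPM + 10) over 141 sums of a graft and type, which share libraries and depth. The names depend on the pseudocount: with 1 in place of 10, 9 of 35 named across types recurred, among them 3 of 5 for Hspa5, 2 of 5 for Ddit3 and 0 of 5 for Herpud1. Among 5987 genes, those most like Hspa5 were Hspa1a (0.68), Hsp90aa1 (0.68), Dnaja1 (0.66), Hsph1 (0.64) and Hspa1b (0.63), which are chaperones or co-chaperones outside the ER, Hspa1a and Hspa1b also being in the warm digestion list. Those most like Hsp90b1 were Manf (0.90), Sec61g (0.88), Ywhae (0.87), Ppib (0.86) and Ndufa11 (0.85). With each type's mean subtracted, Hspa5 was most like Dnaja1 (0.74), Hsp90aa1 (0.71), Pdia3 (0.69), Hspa1a (0.67) and Hsph1 (0.66), and Hsp90b1 most like Manf (0.76), Ncl (0.74), Rpl12 (0.71), Calr (0.71) and Sec61g (0.71). For Xbp1 these were Ywhae (0.64), Manf (0.63), Rpl36al (0.60), Rpl37a (0.60) and Hnrnpm (0.59). With a pseudocount of 1, Ywhae and Manf left these names of Xbp1. Manf, Ncl, Calr and Sec61g left those of Hsp90b1, and Hsph1 those of Hspa5. Before the means were subtracted, Xbp1 was most like Psme1 (0.57), Ist1 (0.55), Mrpl14 (0.55), Capza2 (0.54) and Psme2 (0.54). Across types, Herpud1 was most like Mgl2 (0.66), Erlin1 (0.64), Ccnd1 (0.64), Pkib (0.61) and Timd4 (0.61), Atf4 most like Id2 (0.59), mt-Nd1 (0.55), Rab14 (0.55), Tbc1d5 (0.54) and Ppig (0.54), Ddit3 most like Hcar2 (0.72), Slfn4 (0.72), Arg2 (0.71), Tlr4 (0.71) and Kpna4 (0.71) and Atf3 most like Ftl1 (0.89), Alox5ap (0.88), Spi1 (0.88), Skap2 (0.87) and Csf2rb (0.87). Between 7 of the genes themselves, with type means subtracted, r ranged from -0.18 for Hspa5 and Atf4 to 0.49 for Hsp90b1 and Xbp1 over 21 pairs (median 0.22). It was 0.49 for Hspa5 and Hsp90b1, 0.34 for Herpud1 and Ddit3, 0.26 for Atf3 and Ddit3 and -0.09 for Herpud1 and Xbp1.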

How the data were processed

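CD45+ cells of 16 NIT-1 grafts were profiled by droplet-based single-cell RNA sequencing. The authors deposited raw counts of UMIs per gene and cell, with a table of library, hashtag, cluster and cell type for each cell, which were used as deposited. Cell Ranger and mm10 are named in the submitters' processing notes, and other steps, doublet removal included, are not given in the sources used here. Libraries were super-loaded per the study's methods, and no doublet caller was run. No cell had under 1001 UMIs or over 9.74% mitochondrial UMIs. Of the columns of cells, 0 could not be mapped to a sample.

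UMIs were summed per graft over all cells or 1 cell type, leaving out grafts under 10 cells and types with fewer than 2 such grafts in a group, which left 9 of 12 types. Sums were tested with edgeR 4.0.16 in R 4.3.3 (TMM, filterByExpr, quasi-likelihood test, Benjamini-Hochberg over all genes tested, threshold 0.05). The groups were genotype by day, and contrasts were the genotype at each day, over both days and between days, and the day in each genotype and over both. The SE is the size of the log2 fold change over the square root of F, and 95% intervals use it. For genes of few counts edgeR can give a larger p than this SE implies. Levels are CPM, UMIs per 1000000 UMIs of the same cells, and were not divided by transcript length. The edgeR steps were also run on simulated sums with independent grafts and a small set of changed genes. These data differ from that setting, with many genes called for the day and grafts that share libraries, so that run cannot vouch for the p-values here. Alternatives were DESeq2 1.42.0, library totals as the only scaling, no filter on low counts, at least 20 cells, leaving out the 6% of cells with the most UMIs in each library, each day fitted alone, the hashtag number as a block and each graft left out. Python 3.11.15 with pandas 2.3.3, NumPy 2.4.6 and SciPy 1.17.1 was used for the rest.

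The 8 genes, the pathway lists and the tests were chosen with earlier results of these data known. Named genes were the 8, at most 5 other list genes per comparison with the largest change past the threshold, and for each of the 8 the 5 genes of highest r. Trib3 was under 20 CPM and entered no likeness.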

Additional observations from a re-analysis of the deposited data

Results flagged for a closer look

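The day contrast differed between macrophages and CD4 T cells of the same grafts for 4 genes, as log2 of macrophages minus CD4 T cells, with edgeR: Atf3 by -1.14 (adjusted p = 0.00435), Ddit3 by -1.03 (0.00151), Xbp1 by 0.57 (0.00965) and Atf4 by -0.49 (0.0107).

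Single grafts stood apart from the other 3 of their group in 7 of 120 groups of 4 examined by Dixon's criterion, a rate near the 1 in 20 that chance gives. In all CD45+ cells, Atf3 was 1073 CPM in WT graft 4 of day 17, against 722 to 747 in the others. In CD4 T cells, Herpud1 was 57.4 in WT graft 2 of day 10 (others 79.4 to 80.7) and 60.6 in WT graft 1 of day 17 (others 74.2 to 76.1), and Hspa5 was 774 in WT graft 1 of day 17 (others 657 to 672). In macrophages, Atf3 was 766 in WT graft 3 of day 17 (others 1469 to 1569). In monocytes, Herpud1 was 158 in Rnlsmut graft 3 of day 10 (others 136 to 136) and Trib3 was 3.07 in WT graft 2 of day 10 (others 5.64 to 5.88).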

How the results depend on the processing

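The counts of the 8 genes called for the genotype were 0 in all settings run, and those for the day kept within 1.5 times under each setting that kept all grafts, with 4 or 5 of 8 in all CD45+ cells and 25 to 30 of the tests in cell types. Of the 40 genes most like a member across types, 35 could be named (Trib3 gave none), and 9 of the 35 were named again with a pseudocount of 1. Leaving out 1 graft gave 11 to 21 calls for the day in Rnlsmut grafts by cell type (main 18), the lowest without Rnlsmut graft 1 of day 17, whose cause was not tested. Signs turned only in values that did not pass: Herpud1 in all CD45+ cells was -0.0100 without the filter on low counts, -0.000487 with the replicate block and -0.0401 without the cells of the most UMIs. Ddit3 in CD8 T cells was 0.0411 and Atf4 in monocytes 0.11 with library totals alone, and Atf4 in monocytes was 0.0124 with DESeq2. With 1 graft left out, Herpud1 and Ddit3 in all CD45+ cells ranged over -0.0874 to 0.111 and -0.19 to 0.0420, Ddit3 in CD8 T cells over -0.26 to 0.18, Atf4 in monocytes over -0.12 to 0.0131, Xbp1 in granulocytes over -0.96 to 0.10 and Xbp1 in ILC-1 over -1.01 to 0.13. Calls in cell types were also lost for Hsp90b1 in DC without the cells of the most UMIs (log2 -0.34), for Hsp90b1 in regulatory T cells with DESeq2 (-0.58), library totals alone (-0.46) or at least 20 cells (-0.43), for Xbp1 in regulatory T cells with at least 20 cells (-0.81) and for Herpud1 in CD4 T cells with library totals alone (-0.20). Ddit3 in monocytes passed without the filter (-0.93), with the replicate block (-0.87) and without the cells of the most UMIs (-0.91). Calls were also gained for Hsp90b1 in NK cells without the filter (-0.50), without the cells of the most UMIs (-0.43) and with at least 20 cells (-0.44), for Atf3 in NK cells without the filter (-0.68) and with at least 20 cells (-0.89), for Ddit3 in CD4 T cells with library totals alone (0.44), for Herpud1 in macrophages without the filter (-0.41) and for the difference of Hsp90b1 between macrophages and CD4 T cells without the filter (0.41).

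Deviations of same-numbered WT and Rnlsmut grafts correlated at 0.55, -0.45, -0.02 and -0.11 at day 10. Their day 17 values were -0.11, 0.28, 0.18 and 0.04. Grafts of different numbers also gave both signs, such as 0.45 and -0.47 at day 10. With 4 grafts a group, these values cannot decide whether the hashtag number pairs grafts of 1 host. With the number as a replicate block, 4 of 8 genes were called for the day in all CD45+ cells and 28 tests in cell types. The fit of ILC-1 with at least 20 cells was not run, as too few grafts were left. Trib3 and the granulocyte values are limited by depth, with 5 to 52 Trib3 UMIs per graft.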
